A study of Homo sapiens with 6 samples.

Results

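Genes of fatty acid synthesis and desaturation were followed in 6 RNA libraries of HaCaT, a human keratinocyte line that became immortal spontaneously. The 10 genes, SREBF1, ACLY, ACSS2, ACACA, FASN, ELOVL6, SCD, FADS1, FADS2 and PNPLA3, were taken by name as a functional group from the 57281 genes of the deposited table. Each name occurred once, and all 10 passed the filter on low values that left 17296 genes to test. All cultures received TGF-β1 at 10 ng/ml for 24 h. One group of 3 libraries had TGF-β1 alone, and the other group of 3 also had silymarin, an extract of milk thistle seed, at 31.25 µg/ml. The study asked how silymarin changes the response of these cells in a setting meant to resemble the closing of a skin wound. No library without TGF-β1 was analysed, so each difference below is that of silymarin on top of TGF-β1, and both groups come from 1 cell line. The labels name no vehicle for the group without silymarin.

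Cells build fatty acids in the cytosol from acetyl-CoA. ACLY makes acetyl-CoA from citrate and ACSS2 makes it from acetate, ACACA carboxylates it to malonyl-CoA, and FASN assembles palmitate from both. ELOVL6 lengthens palmitate to stearate, SCD puts the first double bond into saturated chains, and FADS1 and FADS2 desaturate dietary polyunsaturated chains. SREBF1 encodes the SREBP-1 transcription factors, which are cut from a membrane precursor when sterols are low and then bind the promoters of most of these genes. In skin, the products feed the membranes, ceramides and barrier lipids of keratinocytes.

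With silymarin 7 of the 10 genes rose, 1 fell and 2 did not pass the test. FASN and ACSS2 rose most, each to 2.35 times its level with TGF-β1 alone, followed by PNPLA3 (2.19-fold) and ACLY (1.99-fold). FADS1 (1.61-fold), SCD (1.57-fold) and ACACA (1.19-fold) also rose, FADS2 fell to 0.828 of its level, and the transcripts of SREBF1 and ELOVL6 did not pass the threshold. The call used limma on log2(normalized read count + 1) with Benjamini-Hochberg adjustment over all tested genes and an adjusted p under 0.05. By that rule 16% of all tested genes were called higher and 18.2% lower. The median log2 fold change was 0.67 over the 10 genes and 0.00 over all 17296 genes. The same 7 genes had silymarin libraries that all lay above every library with TGF-β1 alone, which held for 23.1% of tested genes, and FADS2 was the 1 gene with all of them below, which held for 24.1%. Rises of at least 2-fold that passed the threshold were found for FASN, ACSS2 and PNPLA3, against 1.36% of tested genes.

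**Figure D1:**
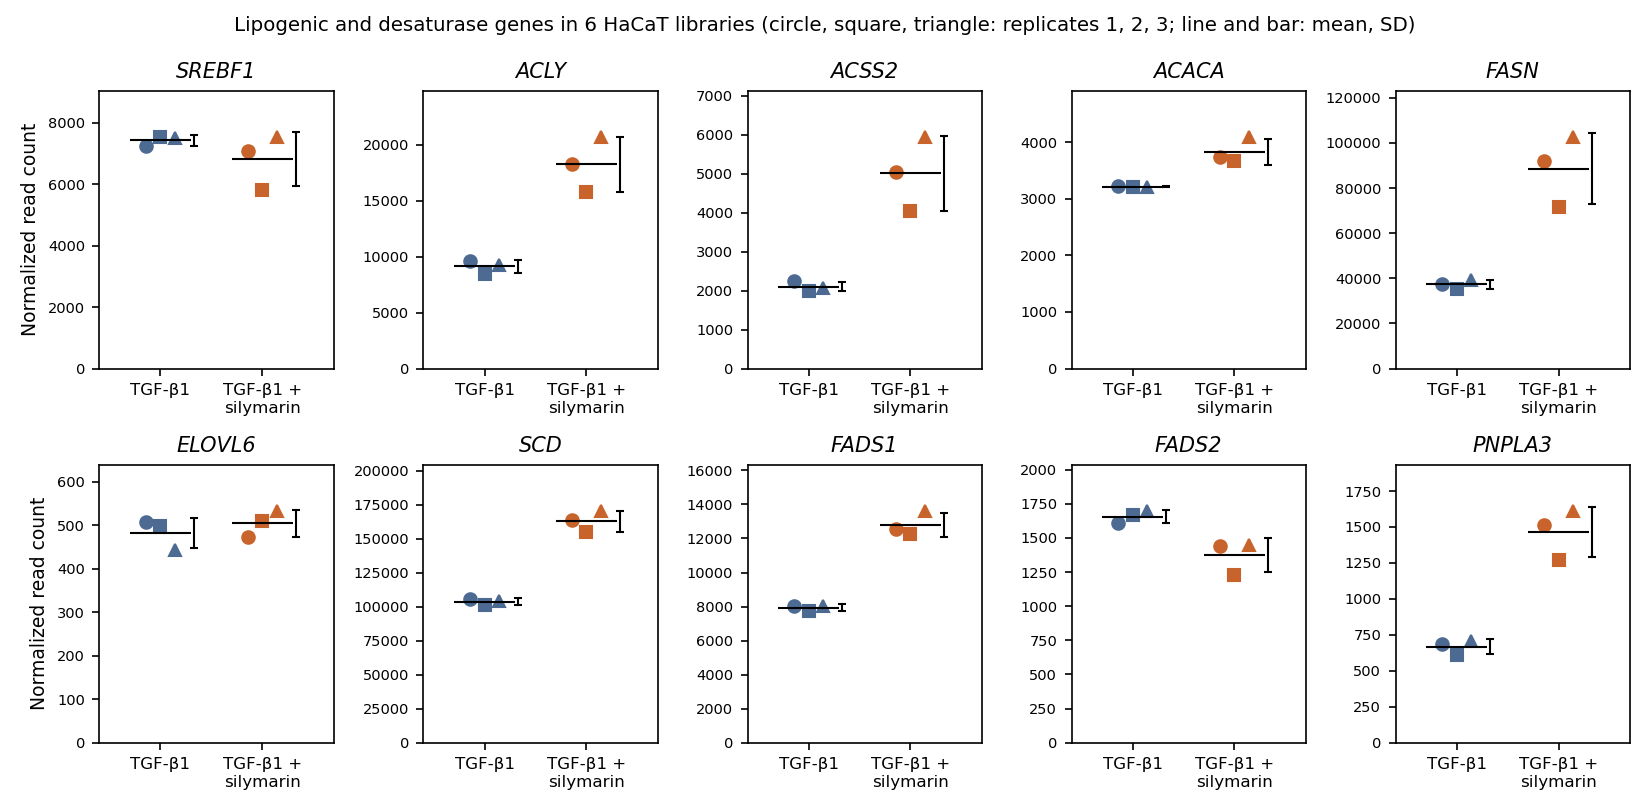
Normalized read counts of the 10 genes (y axis, from 0) in the 3 libraries with TGF-β1 alone (blue) and the 3 with TGF-β1 plus silymarin (orange); circles, squares and triangles are replicates 1, 2 and 3, the horizontal line is the mean and the bar is 1 SD. In 7 panels every orange point lies above every blue one, in FADS2 every orange point lies below, and in SREBF1 and ELOVL6 the groups overlap.

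The libraries were not alike in every respect. Reads assigned to genes, recovered from the normalized values, came to 20240542 to 30279391 in the 5 libraries where this could be done. Silymarin replicate 2 was the shallowest and stood apart from silymarin replicates 1 and 3: its deviation from their mean fell with the GC content of the transcripts (Spearman correlation -0.56 across 16991 genes, which are not independent replicates). The description of the series calls the replicates biological. The p-values set each difference against the spread between cultures of 1 cell line, with a variance prior taken over all genes. These are bulk measurements, so fewer cells that express a gene and less of its RNA per cell cannot be told apart. Of 8 keratinocyte markers, 6 fell with silymarin, TP63 did not pass, and KRT17 was listed at 0 in all libraries; their summed count was 334716 to 345411 with TGF-β1 alone and 190239 to 197470 with silymarin. The sources used here do not say how the counting treated reads that fit several genes, so the KRT17 value does not show that the gene was silent, and the summed count may be incomplete. Without silymarin replicate 2, TP63 was also called lower (log2 fold change -0.17, adjusted p = 0.000179), and CDH1, among the 6, lost its call with any 1 library out except silymarin replicate 2 or 3. KRT5 and KRT14, the keratins of basal keratinocytes, were present in every library. Markers of cells that make or store much fat were near the floor: ADIPOQ, LEP, AWAT1 and AWAT2 were listed at 0 in all 6 libraries, and the 9 adipocyte and sebocyte markers summed to 24.3 to 27.2 counts with TGF-β1 alone and 14.7 to 16.6 with silymarin. The 5 hepatocyte markers summed to 0.884 to 5.44 and 0.865 to 5.10 counts, with TTR and FGA at 0. The 7 fibroblast markers summed to 3334 to 3511 and 1715 to 2055 counts, nearly all of it COL1A1, with DCN at 0. The 5 immune markers summed to 16.2 to 21.2 and 25.2 to 38.1 counts, with 1 of them at 0 in all libraries, and the 5 melanocyte markers to 218 to 232 and 293 to 364 with TYR at 0. CD14, the 1 immune marker tested, was called higher (log2 fold change 0.74), as was 1 of 2 tested melanocyte markers. The 1 tested fibroblast marker was called lower. CD14 lost its call without any 1 library other than silymarin replicate 2 (limma adjusted p = 0.065 to 0.2). The part of the fall in keratinocyte markers in the results below was not tested.

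SREBP proteins act at promoters together with NF-Y, which binds CCAAT boxes, and Sp1, which binds GC boxes. The bases before the transcription starts were read from RefSeq on GRCh38.p14, which gave starts for 8 of the 10 genes, FASN and PNPLA3 not among them. The stretches below lie upstream of a RefSeq start, outside annotated exons, and are written in the direction of transcription. Only that of ACLY reaches its start. Between stretch and start lie 16 bases for SREBF1, 47 for ACSS2, 109 for SCD, 148 for FADS2 and 194 for FADS1. The 250 bases before the SCD start hold 2 GC boxes that are not in its stretch. They are shown for SCD, ACLY and ACSS2, which rose, for SREBF1, which did not pass, and for FADS1 and FADS2, which moved in opposite directions. One start is shown per gene. Of the starts not shown, that of ACSS2 has GC boxes and no CCAAT and that of FADS2 has neither motif, while that of ACLY has both. Capitals mark CCAAT and GGGCGG on either strand (ATTGG and CCGCCC where read from the other strand).
SCD, chr10:100346983-100347123, plus strand: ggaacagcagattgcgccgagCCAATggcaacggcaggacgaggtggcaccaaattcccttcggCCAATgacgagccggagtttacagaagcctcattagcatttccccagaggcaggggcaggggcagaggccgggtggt
ACLY, chr17:41919023-41919272, minus strand: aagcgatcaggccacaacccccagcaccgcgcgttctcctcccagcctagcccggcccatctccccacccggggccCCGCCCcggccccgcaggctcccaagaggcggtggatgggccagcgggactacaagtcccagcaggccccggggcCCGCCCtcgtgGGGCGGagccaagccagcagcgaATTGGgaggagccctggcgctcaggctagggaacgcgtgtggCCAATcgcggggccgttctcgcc
ACSS2, chr20:34874739-34874941, plus strand: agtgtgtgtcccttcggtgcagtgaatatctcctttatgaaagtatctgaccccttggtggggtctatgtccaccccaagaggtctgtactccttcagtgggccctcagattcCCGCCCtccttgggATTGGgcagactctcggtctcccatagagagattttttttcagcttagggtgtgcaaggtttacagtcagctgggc
SREBF1, chr17:17837003-17837236, minus strand: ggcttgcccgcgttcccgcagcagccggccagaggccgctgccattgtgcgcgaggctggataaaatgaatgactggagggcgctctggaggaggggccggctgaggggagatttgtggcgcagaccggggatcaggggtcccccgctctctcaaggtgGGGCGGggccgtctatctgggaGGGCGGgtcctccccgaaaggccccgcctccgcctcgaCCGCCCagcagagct
FADS1, chr11:61817198-61817253, minus strand: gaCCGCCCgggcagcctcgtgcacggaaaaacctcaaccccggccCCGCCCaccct
FADS2, chr11:61816154-61816255, plus strand: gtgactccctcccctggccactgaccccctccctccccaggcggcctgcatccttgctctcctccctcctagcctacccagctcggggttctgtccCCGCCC

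In the full 250 bases before each start, searched on both strands, CCAAT was found at 6 of the 13 starts of these 8 genes, against 32.0% of all 35116 RefSeq promoters of the same length. The starts with it belong to ACLY, ACACA, SCD and ACSS2, and SREBF1, ELOVL6, FADS1 and FADS2 had none in this window. GGGCGG was found at 11 of the 13 starts, all but 1 start each of ACACA and FADS2, against 42.6% of all promoters. TCACNCCAC, a core of the sterol regulatory element, was found at 0 of 13 starts (0.883% of all promoters), and the E-box CACGTG also at 0 of 13 (6.345%). Starts of 1 gene can share bases. No overlap between hits of different motifs was removed. A match is only a match of letters, and sites farther away were not searched.

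SREBF1 (ENSG00000072310.12, chr17:17810399-17837002, minus strand) is the regulator of the group. Its normalized read counts were 7229, 7522 and 7505 with TGF-β1 alone and 7068, 5821 and 7537 with silymarin. The groups overlapped: silymarin replicate 3 held the highest count of all 6 libraries and silymarin replicate 2 the lowest. The means were 7419 ± 165 and 6809 ± 887 (SD, n = 3 each), a log2 fold change of -0.13 (SE 0.076, 95% interval -0.30 to 0.03, limma adjusted p = 0.2), so a fall to 0.815 of the level and a rise to 1.02 times it both lie within the interval. The value rested on single libraries. Without silymarin replicate 2 it was -0.023 (adjusted p = 0.635), and without silymarin replicate 3 it was -0.21 and passed the threshold (adjusted p = 0.0346). The table counts the gene as a whole, so the SREBP-1a and SREBP-1c transcripts cannot be separated. SREBF1 shares 556 exonic bases with RAI1 on the opposite strand in GENCODE 29.

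SREBF2, the relative that governs cholesterol synthesis, had 8573, 8578 and 8368 counts with TGF-β1 alone and 8836, 7977 and 9184 with silymarin (log2 fold change 0.02, 95% interval -0.09 to 0.14, adjusted p = 0.769). Without silymarin replicate 2 it was 0.08 and passed the threshold (adjusted p = 0.0439). The log2 ratio of SREBF1 to SREBF2 counts within a library was -0.20 ± 0.045 with TGF-β1 alone and -0.35 ± 0.089 with silymarin. The difference was -0.16 and the 3 ratios of one group did not overlap the 3 of the other (exact two-sided permutation p = 0.1, the smallest that 3 against 3 libraries can give). It was -0.11 without silymarin replicate 2. That difference restates the fold changes of both genes and is not a further observation.

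ACLY (ENSG00000131473.12, chr17:41866908-41930542, minus strand) cleaves cytosolic citrate to acetyl-CoA. It had 9613, 8458 and 9297 counts with TGF-β1 alone and 18319, 15756 and 20717 with silymarin. The lowest silymarin library held far more than the highest of the others. ACLY rose by 0.99 on the log2 scale (SE 0.081, 95% interval 0.82 to 1.17, adjusted p = 7.44e-07), from 9123 ± 597 to 18264 ± 2481 counts. ACSS2 (ENSG00000131069.15, chr20:34872146-34927962, plus strand), the cytosolic enzyme that joins acetate to CoA, had 2237, 2003 and 2071 counts without silymarin and 5042, 4040 and 5951 with it. Again no library of one group reached the range of the other, and silymarin replicate 2 was the lowest of its group for both genes. ACSS2 rose by 1.24 (SE 0.10, 95% interval 1.01 to 1.46, adjusted p = 8.89e-07). Of all tested genes, 0.752% had a larger log2 fold change than ACSS2 and 1.44% a larger one than ACLY. ACLY shares 156 exonic bases with AC125257.2, an antisense gene.

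ACACA (ENSG00000132142.15, chr17:37084988-37406818, minus strand; its position was matched by name) makes malonyl-CoA, the committed step of the pathway. Its counts with TGF-β1 alone lay close together at 3230, 3209 and 3213, a coefficient of variation of 0.351%, and with silymarin they were 3739, 3668 and 4096. The 3 silymarin libraries were all higher, by a small margin beside those of ACLY and ACSS2. ACACA rose by 0.25 (SE 0.052, 95% interval 0.14 to 0.36, adjusted p = 0.00217). The other carboxylase gene, ACACB, whose product sits at mitochondria and restrains fatty acid oxidation, had 514, 499 and 481 counts and then 444, 427 and 480 (log2 fold change -0.15, 95% interval -0.30 to 0.01, adjusted p = 0.139). The log2 ratio of ACACA to ACACB within a library was 2.69 ± 0.044 with TGF-β1 alone and 3.09 ± 0.015 with silymarin, a difference of 0.40 with no overlap (exact two-sided permutation p = 0.1, the smallest possible). That difference restates the fold changes of both genes and is not a further observation.

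FASN (ENSG00000169710.6, chr17:82078333-82098332, minus strand) had 37626, 35137 and 39025 counts with TGF-β1 alone. With silymarin it had 91810, 71372 and 102685. The silymarin libraries differed among themselves more than the others did, with a coefficient of variation of 17.9% against 5.28%, and replicate 2 was the lowest, yet it too held far more than any library without silymarin. The mean with silymarin was 88622 ± 15898 against 37263 ± 1969 (SD, n = 3 each). FASN rose by 1.23 on the log2 scale (SE 0.099, 95% interval 1.02 to 1.45, adjusted p = 6.32e-07), and 0.757% of tested genes had a larger log2 fold change. The log2 ratio of FASN to ACLY within a library was 2.03 ± 0.054 and then 2.27 ± 0.080, a difference of 0.24 with no overlap (exact two-sided permutation p = 0.1, the smallest possible). That difference was 0.29 without silymarin replicate 2 and 0.32 with the GC and length correction. It restates the fold changes of both genes and is not a further observation.

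ELOVL6 (ENSG00000170522.5, chr4:110045846-110199199, minus strand), the elongase of palmitate, was the least abundant of the 10 per length. Its counts were 507, 497 and 442 with TGF-β1 alone and 472, 508 and 532 with silymarin. The groups overlapped, and the log2 fold change was 0.07 (SE 0.078, 95% interval -0.10 to 0.23, adjusted p = 0.562). In fold terms the interval runs from 0.931 to 1.18, which leaves out a rise of the size measured for FADS1 or SCD. The estimate moved with single libraries, from 0.0042 without TGF-β1 replicate 3 and 0.025 without silymarin replicate 3 to 0.10 without TGF-β1 replicate 1 and 0.11 without silymarin replicate 1. None of these fits passed the threshold.

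SCD (ENSG00000099194.5, chr10:100347124-100364834, plus strand), the delta-9 desaturase that makes oleate, was the most abundant of the group per length. It had 105945, 101241 and 104059 counts with TGF-β1 alone and 163347, 154984 and 170247 with silymarin. The groups were far apart, and the spread within each was small beside the gap. SCD rose by 0.65 (SE 0.053, 95% interval 0.53 to 0.76, adjusted p = 7.67e-07). The second human gene of this kind, SCD5, went the other way: it had 707, 704 and 705 counts and then 548, 579 and 492, and fell by 0.39 (log2, adjusted p = 0.000895). SCD5 remained a minor part, with 164 and 126 reads per kb of exon against 19349 and 30373 for SCD.

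FADS1 (ENSG00000149485.11, chr11:61799625-61829318, minus strand) and FADS2 (ENSG00000134824.9, chr11:61792980-61867354, plus strand) encode the delta-5 and delta-6 desaturases and lie at 1 locus on opposite strands. FADS1 had 8036, 7717 and 8054 counts with TGF-β1 alone and 12572, 12244 and 13610 with silymarin. FADS2 had 1605, 1666 and 1696 counts and then 1442, 1230 and 1451. For both genes the groups did not overlap, but in opposite directions. FADS1 rose by 0.69 (SE 0.050, 95% interval 0.58 to 0.80, adjusted p = 2.49e-07). FADS2 fell by 0.27 (SE 0.067, interval of the log2 fold change -0.42 to -0.13, adjusted p = 0.00663). The ratio of these counts within a library restates the same divergence and is not a further observation. The log2 ratio of FADS2 to FADS1 was -2.32, -2.21 and -2.25 with TGF-β1 alone and -3.12, -3.31 and -3.23 with silymarin. The ratio was thus lower in every silymarin library, by 0.96 on average (exact two-sided permutation p = 0.1, the smallest possible).

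The annotation limits what can be said of this pair. FADS1 and FADS2 share 490 exonic bases on opposite strands, and the libraries were made with a stranded kit. The sources used here do not say whether the counting used strand. If it did not, reads of the shared bases cannot be told apart. FADS2 also shares 49 exonic bases with FEN1 on its own strand, and FEN1, a DNA replication nuclease gene, was listed at 0.865 to 6.57 counts in all 6 libraries. That is low for dividing cells, and how reads in bases shared by genes were assigned is not stated. Reads of FEN1, FADS1 and FADS2 in such bases may therefore be missing or misassigned in these counts. FADS3, the third gene of the family and their neighbour, had 1565, 1604 and 1648 counts and then 1025, 879 and 1024, and fell by 0.72 (adjusted p = 2.37e-06). Of 6 tested neighbours at the locus, MYRF (fell by 1.19), FADS3 and FTH1 (fell by 0.19, with overlapping groups) were called lower and 0 were called higher, or 1 higher, TMEM258, without TGF-β1 replicate 3 or without silymarin replicate 2. FTH1 lost its call without TGF-β1 replicate 1 (adjusted p = 0.179), TGF-β1 replicate 2 (0.1) or silymarin replicate 1 (0.071). By limma's unadjusted p, 1 neighbour, TMEM258, was higher at 0.05 (log2 fold change 0.46, adjusted p = 0.0719), and edgeR on the reads of 5 libraries called 1 higher.

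PNPLA3 (ENSG00000100344.6, chr22:43923739-43964488, plus strand) encodes a lipid-droplet protein with lipase and acyltransferase activity and is a known SREBP-1 target. It had 690, 608 and 705 counts with TGF-β1 alone and 1513, 1272 and 1611 with silymarin. No library of one group came near the other group. PNPLA3 rose by 1.13 (SE 0.086, 95% interval 0.94 to 1.32, adjusted p = 3.85e-07), and 0.966% of tested genes had a larger log2 fold change. It shares 148 exonic bases with SAMM50 on the same strand.

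**Figure D2:**
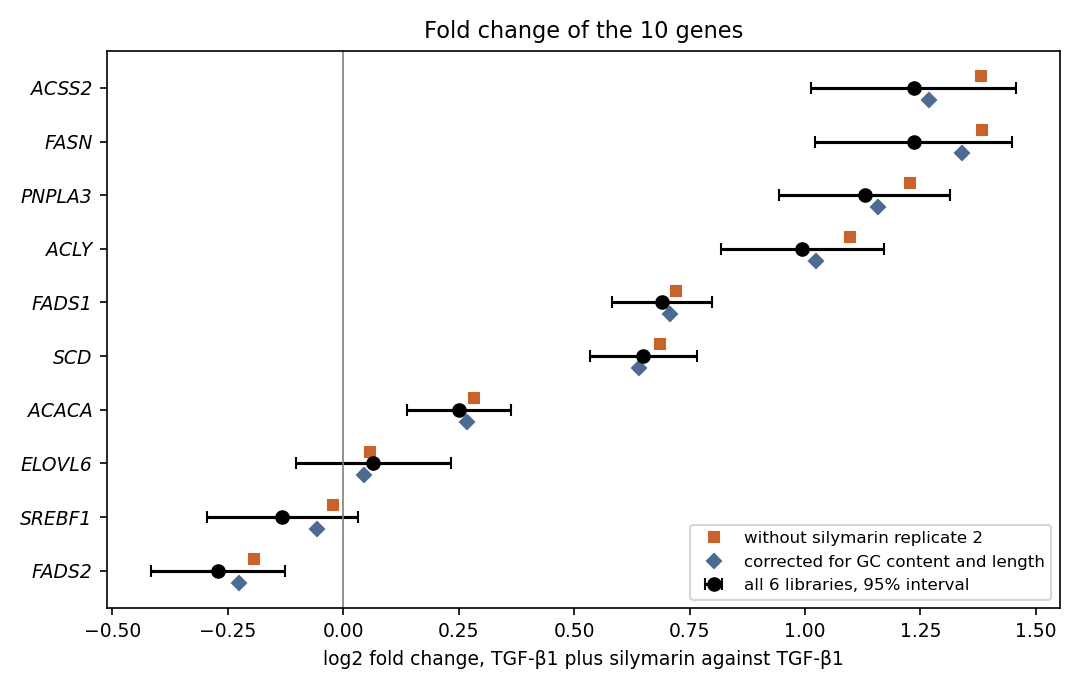
Log2 fold change of TGF-β1 plus silymarin against TGF-β1 (x axis) for each of the 10 genes (y axis); black circles with bars are all 6 libraries with the 95% interval, orange squares leave out silymarin replicate 2, and blue diamonds correct for transcript GC content and length. ACSS2 and FASN lie at 1.24 and 1.23, the intervals of ELOVL6 and SREBF1 include 0, and FADS2 lies at -0.27.

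Levels can be compared between genes only per length, here as mean normalized reads per kb of exon (union of GENCODE 29 exons). With TGF-β1 alone the order was SCD (19349), FASN (3979), ACLY (1749), SREBF1 (924), FADS1 (776), ACSS2 (391), ACACA (247), PNPLA3 (207), FADS2 (150) and ELOVL6 (66.1). No 2 neighbours in that order had overlapping libraries. With silymarin SCD (30373), FASN (9464) and ACLY (3501) still led, and FADS1 (1252 ± 69.7) lay above SREBF1 (848 ± 110). ACSS2 (931 ± 178) and SREBF1 then had overlapping libraries, and PNPLA3 (453 ± 54.0) lay above ACACA (295 ± 17.7). The 10 genes together took 0.666%, 0.638% and 0.671% of all normalized counts with TGF-β1 alone and 1.17%, 1.05% and 1.25% with silymarin. SCD alone took 0.385% to 0.399% and then 0.601% to 0.650%, and FASN 0.133% to 0.149% and then 0.277% to 0.392%.

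**Figure D3:**
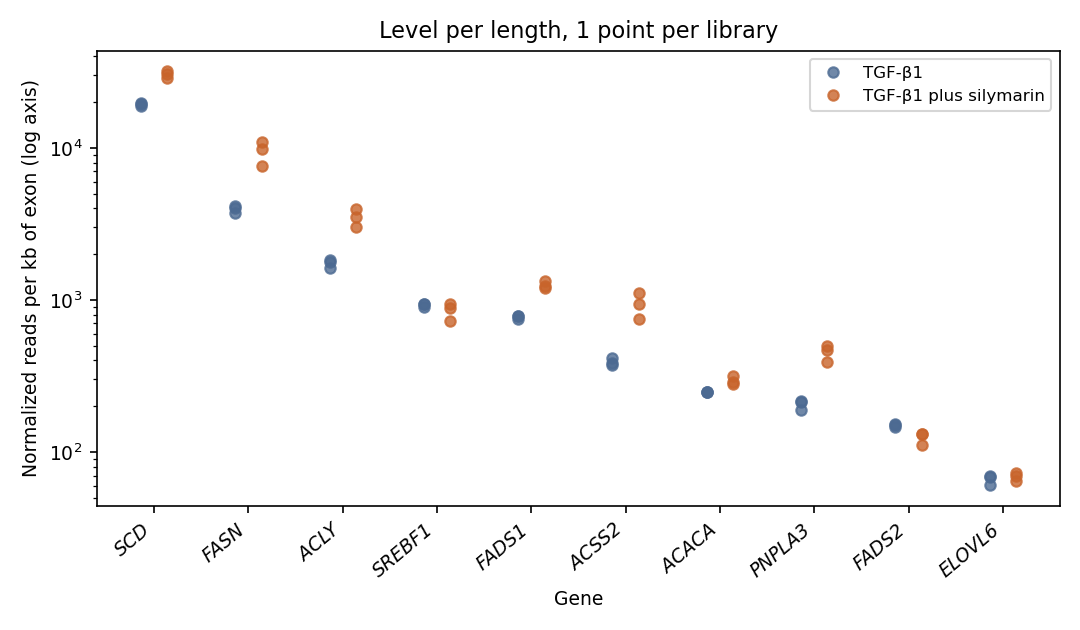
Normalized reads per kb of exon (y axis, log scale) of the 10 genes in each library, with TGF-β1 alone in blue and TGF-β1 plus silymarin in orange, ordered by the mean with TGF-β1 alone. The levels run from 19349 for SCD to 66.1 for ELOVL6 with TGF-β1 alone.

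The 10 genes did not share the deviation of silymarin replicate 2 equally. Against the mean of silymarin replicates 1 and 3 on the log2 scale, that library was lower by the following differences: -0.44 for FASN, -0.44 for ACSS2, -0.33 for SREBF1, -0.31 for ACLY, -0.30 for PNPLA3 and -0.23 for FADS2. SCD (-0.11), FADS1 (-0.10), ACACA (-0.09) and ELOVL6 (0.02) deviated least. FASN and SREBF1 have the most GC-rich transcripts of the 10 (65.3% and 62.8%) and ELOVL6 the least (41.2%). Over the 10 genes the deviation and GC content had a Spearman correlation of -0.85, given as a description, since all points share that library. Without silymarin replicate 2 the same numbers of genes passed, 7 higher and 1 lower, against 20.3% and 21.5% of tested genes. FASN and ACSS2 then each rose by 1.38 and FADS2 fell by 0.19. With each library corrected for the GC content and length of transcripts, FASN rose by 1.34, ACSS2 by 1.27 and FADS2 fell by 0.23.

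**Figure D4:**
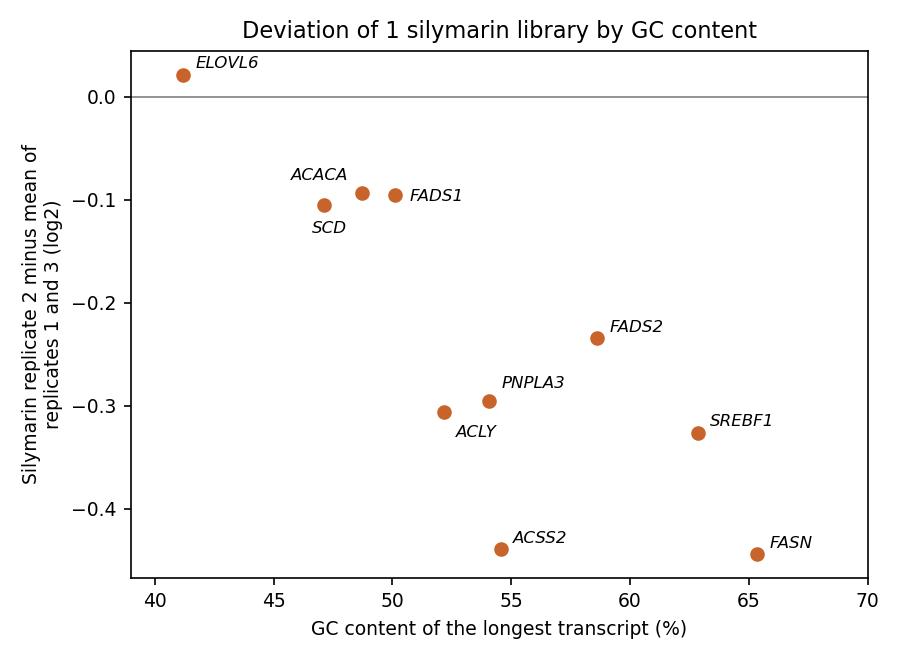
Deviation of silymarin replicate 2 from the mean of silymarin replicates 1 and 3 (y axis, log2) against the GC content of the longest transcript (x axis, %), 1 point per gene. FASN, the most GC-rich at 65.3%, lies at -0.44 and ELOVL6, the least at 41.2%, at 0.02.

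Around the 10 genes, 12 lists of pathway genes were read from the same fit. Each count of calls below is to be read beside the shares of all tested genes, 16% called higher and 18.2% lower. The list that supplies citrate and NADPH rose in 6 of 8 genes and had a median log2 fold change of 0.51. None of its genes was called lower, also not at an unadjusted limma p under 0.05, nor by edgeR or DESeq2. SLC25A1, among the 6, rose by 0.25 with overlapping groups (limma adjusted p = 0.0332). SLC25A1 lost its call without any 1 library other than silymarin replicate 2 (adjusted p = 0.0651 to 0.121), which left 5 genes called higher. PGD, an NADPH-forming enzyme of the pentose phosphate pathway, rose by 0.81, malic enzyme ME1 by 0.65 and cytosolic isocitrate dehydrogenase IDH1 by 0.56. TKT (0.12, adjusted p = 0.113) and TALDO1 (-0.01, adjusted p = 0.921), of the non-oxidative part of that pathway, did not pass, but TKT was called higher without silymarin replicate 2 (0.19, adjusted p = 5.44e-05). Of 4 tested partners of the carboxylase and the synthase, 1 rose, MID1IP1, which promotes polymers of acetyl-CoA carboxylase (0.48), and THRSP and OLAH were at or under 1.27 counts in every library.

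The chain-elongation genes beside ELOVL6 were mixed. Of 10 tested, 3 rose, 2 fell and 5 did not pass, with a median of -0.03. The elongase of polyunsaturated chains, ELOVL5, rose by 0.67, ELOVL7 by 0.81, and the ketoacyl-CoA reductase HSD17B12 by 0.52. The dehydratases HACD2 (listed as PTPLB) and HACD4 (listed as PTPLAD2) fell by 0.36 and 0.42. HACD4 lost its call without TGF-β1 replicate 1 (adjusted p = 0.0745), TGF-β1 replicate 2 (0.0593) or silymarin replicate 1 (0.0864). ELOVL1 was called lower without silymarin replicate 3 (-0.18, limma adjusted p = 0.0315). HACD3 (listed as PTPLAD1) was called lower without silymarin replicate 2 (-0.12, limma adjusted p = 0.00736). Of 7 other desaturases and electron donors tested, 3 rose (the ceramide desaturase DEGS1 by 0.28, the cytochrome b5 genes CYB5B by 0.28 and CYB5A by 0.22) and 2 fell, FADS3 and SCD5. CYB5A did not pass once TGF-β1 replicate 2 (adjusted p = 0.0697) or TGF-β1 replicate 3 (0.0991) was left out. CYB5R3 was called lower without silymarin replicate 3 (-0.25, limma adjusted p = 0.0354).

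Of 11 tested genes that activate or take up fatty acids, 4 rose, 4 fell and 3 did not pass. The long-chain acyl-CoA synthetases ACSL4 (0.55), ACSL1 (0.50) and ACSL3 (0.37) rose, as did the transporter SLC27A4 (0.23). Its relatives SLC27A1, SLC27A2, SLC27A3 and SLC27A6 fell by 0.32, 0.46, 0.50 and 0.85, the last with 32.7 counts at most. Without TGF-β1 replicate 2, 2 of the list were called lower, since SLC27A1 (adjusted p = 0.0701) and SLC27A6 (0.103) did not pass. SLC27A6 also missed the threshold with TGF-β1 replicate 1 (0.102) or silymarin replicate 2 (0.0909) left out, and SLC27A4 without any 1 library other than silymarin replicate 2 (0.0615 to 0.103). In glycerolipid assembly and lipolysis 6 of 16 rose, 2 fell and 8 did not pass. Without any 1 TGF-β1 library, 4 of these genes were called higher, and edgeR and DESeq2 also called 4. AGPAT4 lost its call without TGF-β1 replicate 1 (limma adjusted p = 0.0695), TGF-β1 replicate 3 (0.113) or silymarin replicate 3 (0.109). AGPAT5 lost it without TGF-β1 replicate 1 (0.0738) or 2 (0.0563), and ABHD5 without TGF-β1 replicate 2 (0.13) or 3 (0.0697). LPIN1, a phosphatidate phosphatase, had 2412, 2106 and 2460 counts and then 5507, 5043 and 5857, and rose by 1.23 (adjusted p = 1.83e-08). The hormone-sensitive lipase gene LIPE rose by 0.90, and AGPAT2 and LPIN3 fell by 0.37 and 0.47.

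In a list of 11 genes, made up of SREBF2 and genes that process SREBP precursors, 4 rose and 7, SREBF2 among them, did not pass. None was called lower, also not at an unadjusted limma p under 0.05, nor by edgeR or DESeq2. INSIG1, which holds the precursor in the endoplasmic reticulum and is itself an SREBP target, had 9934, 9131 and 10086 counts and then 17160, 17138 and 18278, and rose by 0.85 (adjusted p = 4.31e-08). RNF139 (0.23) and INSIG2 (0.18) rose less. The count of 4 fell to 2 without TGF-β1 replicate 1 or without silymarin replicate 1, and to 1 without TGF-β1 replicate 2 or without TGF-β1 replicate 3. SCAP, the sterol sensor that escorts the precursors, had a log2 fold change of 0.08 (95% interval -0.06 to 0.22, adjusted p = 0.383).

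Of 22 tested lipogenic regulators 2 rose, 6 fell and 14 did not pass. TRIB3, which promotes degradation of acetyl-CoA carboxylase, rose by 0.77, and PRKAG2, a subunit of the kinase AMPK, by 0.50. Another AMPK subunit, PRKAB2, fell by 0.46, and FBXW7, which marks nuclear SREBPs for degradation, fell by 0.37. Without silymarin replicate 2, 5 of the list were called higher. Among the 6, MLX lost its call without any 1 TGF-β1 library or without silymarin replicate 2 (limma adjusted p = 0.0522 to 0.138). NFYC lost its call without TGF-β1 replicate 2 (0.0524), TGF-β1 replicate 3 (0.129) or silymarin replicate 1 (0.0561). MLXIPL, the carbohydrate-responsive lipogenic factor, had 84.0, 106 and 96.1 counts and then 101, 103 and 120 (log2 fold change 0.18, adjusted p = 0.316).

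LXR, a sterol-activated nuclear receptor, also drives SREBF1. Of 6 of its other targets 1 rose, the phospholipid-remodelling enzyme LPCAT3 (0.69). APOE, SMPDL3A, ABCG1 and MYLIP fell by 0.87, 0.67, 0.44 and 0.42, and ABCA1 did not pass (-0.74, adjusted p = 0.0993). ABCA1 was called lower without TGF-β1 replicate 2 (-1.03, adjusted p = 0.0387), without silymarin replicate 3 (-0.97, adjusted p = 0.0469) and with the replicate number as a block (adjusted p = 0.0463). The median of the list was -0.55. Cholesterol synthesis and LDL uptake, the pathway under SREBF2, rose in 20 of 22 tested genes with a median of 0.56. CYP51A1, also listed, was under 10 counts in every library and was not tested. How reads that fit several genes were counted is not stated, so that value does not show that the gene was silent. IDI1, MSMO1, FDFT1 and HMGCS1 had the smallest p-values, with rises of 0.98, 0.87, 0.81 and 0.75. PMVK fell by 0.35, and 2 genes of the list were called lower without silymarin replicate 2. This pathway is counted here for comparison with the 10 genes, and no test of a difference between the lists was made.

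Fatty acid oxidation, the opposing pathway, had a median of 0.03 over 17 genes, of which 3 rose, 3 fell and 11 did not pass. These counts lie near the shares of all tested genes, 16% called higher and 18.2% lower. The trifunctional protein genes HADHA (0.31) and HADHB (0.21) and the dehydrogenase HADH (0.57) rose, while the thiolase ACAA2 fell by 0.97, the carnitine carrier SLC25A20 by 0.57 and ACADS by 0.54. Without silymarin replicate 2, 7 genes of this list were called higher. HADHB lost its call without TGF-β1 replicate 3 (adjusted p = 0.0611), and SLC25A20 without TGF-β1 replicate 3 (0.0511) or silymarin replicate 1 (0.0578).

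**Figure D5:**
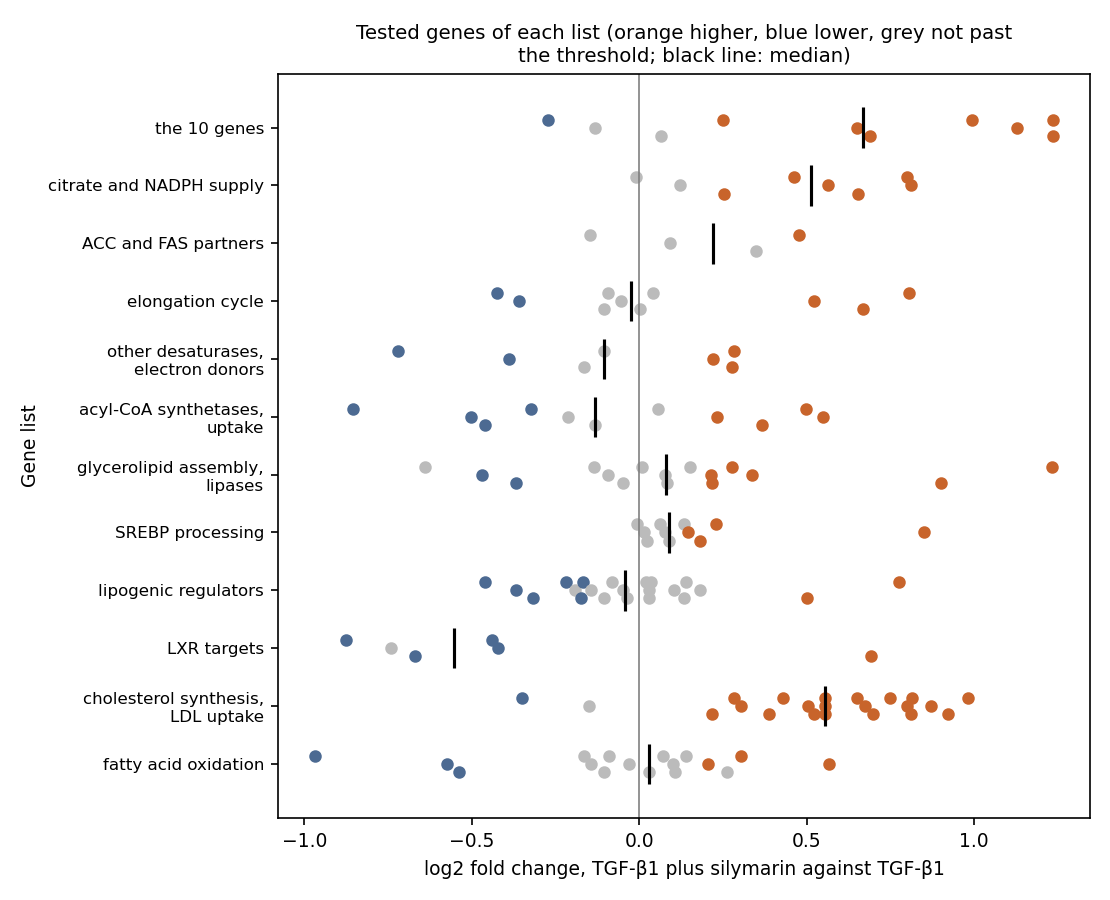
Log2 fold change with silymarin (x axis) of each tested gene in the group of 10 and in 11 related lists (y axis, points shifted up or down only to show them); orange was called higher, blue lower, grey did not pass, and the black line is the median. The medians are 0.67 for the 10 genes, 0.51 for citrate and NADPH supply, 0.56 for cholesterol synthesis and -0.55 for LXR targets.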

How the data were processed

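Poly(A) RNA of 6 HaCaT cultures was sequenced from stranded mRNA libraries, per the labels' protocols. Per the submitters' processing notes, the tools included bcl2fastq 2.18.12 and cutadapt 1.15, the aligner TopHat2 2.1.1, featureCounts, the package Subread 1.5.2, and DESeq2. Genome build, annotation release and use of strand are not given in the sources used here. What the authors deposited is 1 table of 57281 genes whose values are a signal of normalized read counts, that is, counts divided by 1 size factor per library. In 5 libraries 100% of values came out as whole reads within 0.001 reads. TGF-β1 replicate 3 was left out of count models because its step is too near 1 for the check used, which leaves 5 libraries. There edgeR 4.0.16 called 2111 genes higher and 2564 lower of 17843. Normalization to a common scale hides any change in total RNA per cell.

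In R 4.3.3, limma 3.58.1 with a trended prior modelled log2(normalized count + 1) by group alone in the 17296 genes that reached 10 normalized counts in 3 or more libraries. P-values were adjusted by Benjamini-Hochberg over all of them, and called at 0.05. Fold changes are on that log2 scale and are understated for genes with low counts. Positions, exon lengths and GC content come from GENCODE 29 (GRCh38), where 97.3% of tested genes were found by identifier, and may differ from the authors' annotation. The members, lists and tests were chosen with earlier results of these data known. From each list up to 4 called genes with the smallest p were named, and any direction with 5 or fewer calls. The relatives SREBF2, ACACB, SCD5, FADS3, ELOVL5 and MLXIPL were named too. Genes named because they did not pass, or because their call changed in another fit, were chosen after their values were seen. A few list members are not reported here by name. The alternatives tried were other scalings (TMM, upper quartile, library size), other filters (none, or 5 CPM in 3 libraries), other pseudocounts (0.1, 10), a threshold of 0.01, a block for the replicate number, a GC and length correction, leaving out each library, and edgeR or DESeq2 1.42.0 on recovered reads.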

Additional observations from a re-analysis of the deposited data

How the results depend on the processing

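The 7 rises and the fall of FADS2 passed the threshold under every alternative run, and the number of the 10 genes called lower ranged from 1 to 2 when libraries were left out, with SREBF1 added without silymarin replicate 3. The log2 fold change of SREBF1 ranged from -0.21 (without silymarin replicate 3) to -0.023 (without silymarin replicate 2) over those fits. Over all genes, 1667 were called higher at an adjusted p under 0.01 against 2764 at 0.05. DESeq2 on the reads of 5 libraries called 1543 higher and 1946 lower, against 2764 and 3148 with limma on 6 libraries. The labels number the replicates 1 to 3 in both groups, but libraries of 1 number did not deviate together (correlations -0.04, 0.04 and 0.02), so the numbers were not taken as pairs. With the replicate block the 10 genes kept their calls (SREBF1 -0.13, limma adjusted p = 0.156), and 2630 genes were called higher and 3048 lower. SREBP processing genes called higher went from 4 to 2 and neighbours of the FADS genes called higher from 0 to 1. ABCA1 (adjusted p = 0.0463) and ACADM (0.0278) gained a call. MLX (0.068), the keratinocyte marker CDH1 (0.0738) and the immune marker CD14 (0.0511) lost theirs. List counts that moved by over 1.5 times were as follows. At an adjusted p under 0.01, SREBP processing had 1 called higher, glycerolipid genes 3 higher, elongation genes 1 lower and acyl-CoA synthetases and uptake 2 lower. With DESeq2, SREBP processing had 1 higher, elongation 1 lower, acyl-CoA synthetases and uptake 2 lower and oxidation 1 lower; with edgeR, SREBP processing had 1 higher and neighbours of the FADS genes 1 higher. With the GC and length correction, regulators had 6 higher, oxidation 7 higher, cholesterol genes 2 lower and partners of the carboxylase 2 higher. The partners also had 2 higher under upper quartile or library-size scaling, pseudocounts of 0.1 or 10, or without silymarin replicate 3, and regulators 4 higher under library-size scaling. The causes were not tested. With 3 libraries a group, the exact permutation test of a ratio could not go below p = 0.1.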
